A study of Mus musculus with 3 samples.

Results

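Among the mouse cells recovered from human split-thickness skin after 14 days under the skin of mice (library hSTSG), 91 of 2144 kept cells carried Plac8 together with Lyz2 and little of the macrophage receptors Trem2 and Cd163. They are called the Plac8 monocytes, or the members, and they made up 4.24% of the kept cells (95% interval 3.43 to 5.19%), within 18226 cells kept over the 3 libraries of the series. A barcode was kept with at least 300 genes, fewer than 100000 gene UMIs (unique molecular identifiers, each standing for 1 counted transcript) and less than 10% of UMIs from mitochondrial genes. A kept cell was a member when it held at least 2 Plac8 UMIs, at least 10 Lyz2 UMIs, at most 1 Trem2 UMI, at most 1 Cd163 UMI, none of Cd3d, Cd3e, Cd3g or Cd79a, and less than 2% of its UMIs from S100a8 plus S100a9. The members were therefore chosen on measured values, and levels of the genes in that rule are a description and no finding.

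The series asked which host cells respond to a human skin graft placed beneath mouse skin. The recipients were wild-type C57BL/6J mice, and the cells of 5 mice were pooled into the hSTSG library with no map from cells to animals, so the pool counts as 1 sample. The other two libraries came from bone marrow grown for 7 days with GM-CSF, one left untreated (Co-Mac) and one given 1 µM 1,25-dihydroxycholecalciferol, the active form of vitamin D, for 24 h (VD-Mac). Only mouse genes were counted. With 1 library per group no test could be run. Where a 95% interval is given, that of a level is exact Poisson, that of a share Clopper-Pearson and that of a ratio conditional binomial. These cover counting error only, since cells of 1 pool are not replicates.

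Monocytes leave the bone marrow, circulate in blood and cross vessel walls at sites of injury or foreign tissue. In mice the classical subset carries high surface Ly6C and the chemokine receptor CCR2, and the nonclassical subset patrols the vessel lining with low Ly6C. In tissue, monocytes can lose these markers and take on features of macrophages or of antigen-presenting cells.

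Members held a median of 12378 UMIs (3901 to 31325) from a median of 3033 genes, with 3.82% mitochondrial UMIs at the median. The comparison groups of the same library were 311 Trem2 macrophages (Lyz2 at least 10, Trem2 at least 2 and Cd163 at most 1 UMI) at a median of 17625 UMIs and 76 Cd163 macrophages (Lyz2 at least 10 and Cd163 at least 2 UMIs) at a median of 16448 UMIs, both under the same lymphocyte and S100 limits. Neutrophils (390 cells, at least 2% S100a8 plus S100a9) and T cells (262 cells, at least 2 Cd3 UMIs and under 10 Lyz2 UMIs) served as a measure of other cell types and of free RNA, at medians of 2372 and 5862 UMIs. Of the 2644 barcodes, hSTSG shared 7 with Co-Mac and 7 with VD-Mac, and none of the shared barcodes was a member. Doublets were kept. The automatic threshold of the doublet score called 9 barcodes, while an assumed rate of 0.8% per 1000 barcodes put 56 top scores in question, 2 of them members.

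The rule narrowed the cells in steps. Plac8 left 518 cells, Lyz2 left 184, Trem2 left 123 and Cd163 left 116, and the lymphocyte genes left 114 before the S100 limit gave 91. At the Plac8 edge, 3 members had exactly 2 Plac8 UMIs, and their Ly6c2 level was 0 CPM (UMIs per 1000000 UMIs of the summed cells) with H2-Aa at 7173 CPM. The 10 cells with 1 Plac8 UMI, just outside, had Ly6c2 at 101 CPM and H2-Aa at 7397 CPM, so the cells on both sides of that edge were rich in H2-Aa. At the Lyz2 edge, 8 members with 10 to 14 UMIs had Plac8 at 1246 CPM, against 1484 CPM in 33 cells with 5 to 9 Lyz2 UMIs outside. At the Trem2 edge, 36 members had 1 Trem2 UMI and Ly6c2 at 349 CPM, and 15 cells with 2 Trem2 UMIs outside had Ly6c2 at 323 CPM and Vcan at 416 CPM. The 32 cells with 3 or more Trem2 UMIs stood further off, with C1qa at 2361 CPM. Cd163 held 4 members with 1 UMI inside and 7 cells with 2 or more outside. At the S100 edge no member lay between 1 and 2%, and the 23 cells left out had Ly6c2 at 1030 CPM with Vcan at 4.54 CPM and Ms4a4c at 0.

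The label Plac8 monocytes has 5 markers, of which Plac8 is part of the rule. The members were chosen with earlier results of these data known, and the macrophage groups on Trem2 or Cd163. The marker levels therefore describe the members and do not test the label. Plac8, which encodes a small cysteine-rich protein of myeloid cells, was at 1995 CPM in members, 172 in Trem2 macrophages, 81.1 in Cd163 macrophages, 231 in neutrophils and 211 in T cells. Ly6c2 encodes the Ly6C surface protein of classical monocytes, and its level was 251 CPM (223 to 281) in members, 28.6 CPM in Trem2 macrophages and 10.6 CPM in Cd163 macrophages, or 5.73 CPM without the Cd163 macrophage that held 8 of the 17 UMIs. Neutrophils carried at least as much of it, at 309 CPM, and T cells less, at 105 CPM, so the marker did not set members apart from neutrophils. Vcan, which encodes the matrix proteoglycan versican, was at 368 CPM (334 to 404) in members against 60.1 and 10.6 CPM in the macrophage groups, with 1.67 CPM in neutrophils and 1.1 CPM in T cells. Ms4a4c, a membrane protein of the Ms4a family, was at 243 CPM in members, 32.4 CPM in Trem2 macrophages, 16.2 CPM in Cd163 macrophages, 0 in neutrophils and 6.62 CPM in T cells. Gpr141, an orphan G protein-coupled receptor, was at 209 CPM in members, 15.5 CPM in Trem2 macrophages and 129 CPM in neutrophils. No Gpr141 UMI was found in Cd163 macrophages, so the members were at least 112-fold higher (floor of 3 UMIs over the group). The 4 markers outside the rule were thus higher in the summed members than in either macrophage group. The plot of levels by cell group shows each with its interval. Not every member carried them, since a Ly6c2 UMI was found in 49 of the 91. In the 35 C1q-positive members, a split given further on, Vcan was at 144 CPM and Ly6c2 at 138 CPM. Both were still above their levels in the macrophage groups. Mrc1, a macrophage gene, was at 1688 CPM in these members, or 1333 CPM without 1 of them, against 1738 CPM in Trem2 macrophages. Whether each member was a monocyte was not tested. Whether the cells were still entering the graft cannot be read from 1 time point.

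**Figure D1:**
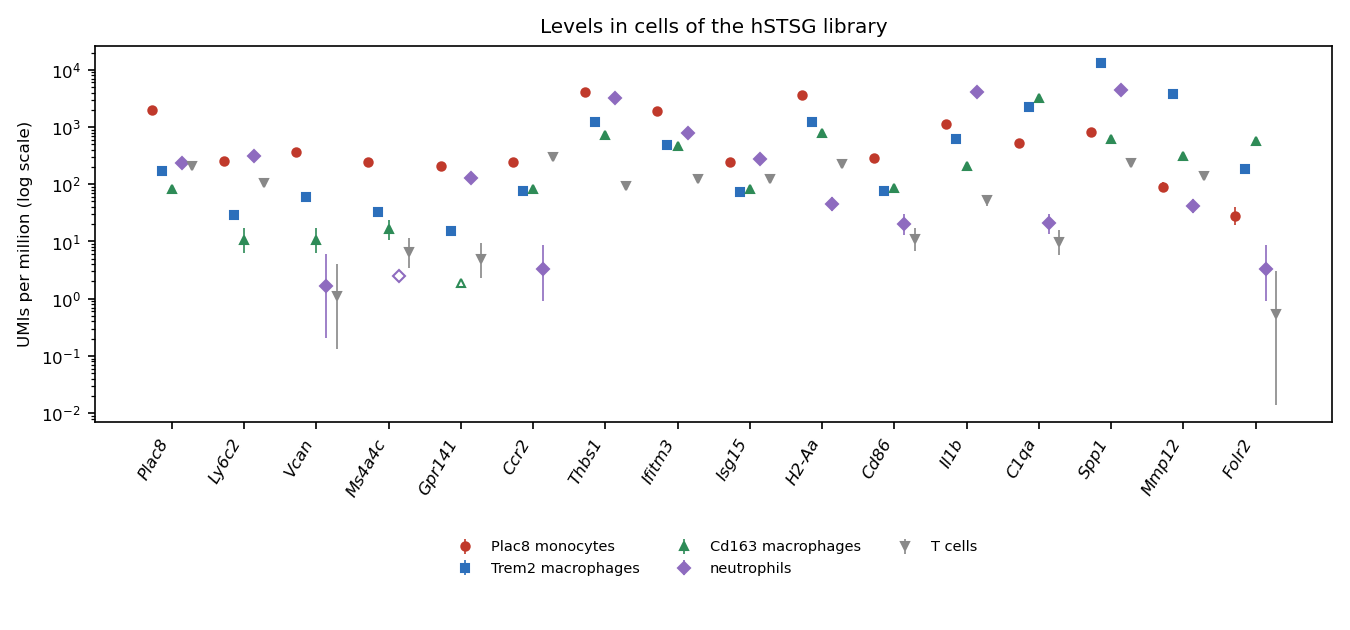
Levels of 16 genes in summed cells of the hSTSG library, in CPM on a log axis, for Plac8 monocytes, Trem2 and Cd163 macrophages, neutrophils and T cells; bars are 95% Poisson intervals and open symbols mark 0 UMIs, drawn at the floor of 3 UMIs. The members lie above both macrophage groups for Ly6c2, Vcan, Ms4a4c, Gpr141 and H2-Aa, and under both for C1qa and Folr2.

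Shares of cells with a UMI were compared after each cell was thinned to 2000 UMIs, which left out no member, 1 Trem2 macrophage, 1 T cell and 110 neutrophils. A Ly6c2 UMI was then found in 25 of 91 members (27.5%, 18.6 to 37.8%), in 2.9% of Trem2 macrophages and in 6.13% of T cells. Without thinning, 49 members (53.8%) held a Ly6c2 UMI, against 9.54% of T cells. The thinned shares of Vcan, Ms4a4c and Gpr141 were each 33% in members, with 0%, 1.15% and 0.766% in T cells, so more members than T cells carried each of them at equal depth. Their unthinned shares in members were 61.5%, 78% and 67%. Ccr2, the receptor for the monocyte chemoattractant CCL2, was found in 35.2% of thinned members and 35.6% of thinned T cells, and in 80.2% of members without thinning. Its level was 249 CPM in members, 303 CPM in T cells and 3.33 CPM in neutrophils, and against the macrophage groups it was higher in members by a log2 ratio of 1.71 (Trem2) and 1.58 (Cd163).

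The 5 marker genes lie apart in the genome (GENCODE M21, GRCm38). Plac8 lies at chr5:100553725-100572245 on the minus strand, Ly6c2 at chr15:75108158-75111970 on the minus strand and Vcan at chr13:89655312-89742509 on the minus strand. Gpr141 shares chromosome 13 with Vcan, at chr13:19749682-19824257 on the minus strand, and Ms4a4c lies at chr19:11404770-11427246 on the plus strand. Ly6c2 has a close paralog in Ly6c1, with 11% of the 91-base windows in its last 400 transcript bases (34 of 310) also found there. Ly6c1 stood at 0 UMIs in the members.

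Against Trem2 macrophages, 655 of 7465 genes tested (8.77%) were at least 2-fold higher in members and 897 (12%) at least 2-fold lower, where a gene was tested with at least 10 CPM in either group. The median log2 ratio over the tested genes, with 1 CPM added to each level, was 0.04. The 12 genes with the largest ratios at 50 CPM or more included the markers Gpr141 and Ly6c2. Among the other 10, Ifitm1, which encodes an interferon-induced membrane protein, was 7.42-fold higher (453 CPM against 61). Ifitm6, a family member described in monocytes, was at 139 CPM against 14.8 CPM. Il1r2, the decoy receptor that binds interleukin-1 without signalling, was also at 139 CPM, against 14.5 CPM, and 32.1% of its UMIs sat in 1 member. Satb1, a chromatin organiser, was at 69.6 against 6.76 CPM with 65.4% of its UMIs in 3 members. Gm9733, a predicted gene, was spread over 44 members at 85.9 against 5.53 CPM.

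The last 5 of those 10 genes rested on 1 cell. Col1a1, Col1a2, Col3a1 and Dcn encode fibroblast matrix proteins and Cxcl12 a stromal chemokine, and 1 member of 17091 UMIs and 4074 genes held 757 of the 845 fibroblast-marker UMIs found in all members (89.6%). That member carried 8 Plac8 and 14 Lyz2 UMIs and no Ly6c2 UMI, and it was 1 of the 2 members with a high doublet score. With it, Cxcl12 was at 62.7 CPM against 1.38 CPM in Trem2 macrophages, and without it at 0.872 CPM. Col3a1 went from 282 to 32.3 CPM, Col1a2 from 186 to 17.4 CPM, Col1a1 from 168 to 19.2 CPM and Dcn from 65.3 to 4.36 CPM, so that none of the 5 was 2-fold higher. Over the other 90 members, 636 genes were higher and 919 lower than in Trem2 macrophages, and 664 were higher and 1593 lower than in Cd163 macrophages.

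The genes lower than in Trem2 macrophages included several of lysosomal and matrix-degrading function. Mmp12, the macrophage elastase, was at 91.1 CPM in members against 3836 CPM, a 42.1-fold difference. Ctsk, the collagen-cleaving cathepsin K, was at 8.59 CPM against 409 CPM. Spp1, which encodes osteopontin, was at 823 CPM against 13264 CPM, a 16.1-fold difference that left it among the abundant genes of the summed members. Its UMIs were found in 67 members, with 60.8% of them in 3 cells. Mfge8, a bridge between dying cells and phagocytes, was at 13.7 CPM against 465 CPM, and Pf4, the chemokine platelet factor 4, at 115 CPM against 1871 CPM. Atp6v0d2, a subunit of the proton pump of lysosomes, was at 7.73 CPM against 247 CPM, and without the member holding 4 of its UMIs at 4.4 CPM. A pair of named genes had no UMI in the members. H2-M2, a nonclassical MHC gene, was at least 25.8-fold lower than the 66.6 CPM of Trem2 macrophages, where 3 cells held 46.2% of its UMIs. Syngr1, a vesicle protein, was at least 21.1-fold lower than 54.4 CPM.

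Against Cd163 macrophages, 678 of 7804 genes tested (8.69%) were at least 2-fold higher in members and 1564 (20%) at least 2-fold lower, with a median log2 ratio of -0.19. In both comparisons 388 genes were higher and 639 lower, while 5 were higher than in Trem2 but lower than in Cd163 macrophages and 9 the reverse. The members are the same cells in both, so these counts are not independent. Hp, which encodes the haemoglobin scavenger haptoglobin, was 50.5-fold higher (189 CPM against 3.74). Gm9733 had no UMI in Cd163 macrophages and was at least 45.9-fold higher. Vcan was 34.7-fold higher, and 8 of the 17 Vcan UMIs of Cd163 macrophages sat in 1 cell, without which its log2 ratio was 6.02 instead of 5.12. Napsa, an aspartic protease of monocytes, was 25-fold higher at 218 CPM, with 8 of the 14 other UMIs in 1 cell and a log2 ratio of 5.83 without it. Stap1, a signalling adaptor, was at 91.9 CPM against 1 UMI in the Cd163 group, a log2 ratio of 7.20 (4.69 to 12.52).

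Genes lower than in Cd163 macrophages are named here by gene and not as a group. Gas6, a ligand of the Mertk receptor in the clearance of dying cells, was at 18 CPM in members against 557 CPM, and 12 of its 21 member UMIs were in 1 cell, without which the level was 7.85 CPM. Retnla, a secreted protein induced by type 2 cytokines, was at 14.6 CPM against 1261 CPM, and at 5.27 CPM without the member holding 64.7% of its UMIs. Mki67, a marker of dividing cells, was at 3.44 CPM against 101 CPM. Cd209f, a C-type lectin gene with no UMI in members, was at least 51.3-fold lower, and 70.8% of its UMIs in Cd163 macrophages came from 3 cells. Aqp1, a water channel of vessel lining, was lower at 2 UMIs against 118 CPM, but 99.5% of the UMIs of the Cd163 group sat in 1 cell, and without that cell the group held 1 UMI, too few on either side to give a direction. Fabp4, a fatty acid carrier, was 21.4-fold lower with 90.6% of the other UMIs in 1 cell, and without it the log2 ratio was -1.07. Endothelial markers summed to 77.4 CPM in the Cd163 group and 14.6 CPM in members, and their part in these ratios was not tested.

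Lists of genes with a known role were read by their counts and medians beside those of the whole comparison, in which 8.77% of genes were higher and 12% lower than in Trem2 macrophages and 8.69% and 20% than in Cd163 macrophages. Genes that go with Plac8, Trem2 or Cd163 can differ through the choice of the cells, and the part of that choice was not tested. In the classical monocyte list, 12 of 19 genes were higher and 1, Fn1, lower than in Trem2 macrophages, with a median log2 ratio of 1.72, and 14 were higher and 2 lower than in Cd163 macrophages, with a median of 3.85. Thbs1, which encodes the matrix protein thrombospondin 1, was the most abundant of those named here, at 4141 CPM (4025 to 4260) in members against 1207 CPM and 738 CPM. Clec4e, the receptor Mincle for glycolipids of microbes and dead cells, was at 672 CPM against 260 CPM and 104 CPM. Hp was 2-fold higher only in the Cd163 comparison, its level in Trem2 macrophages being 106 CPM. A single Trem2 macrophage held 25.8% of those Hp UMIs, and without it the log2 ratio was 1.25 and past 2-fold.

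The nonclassical list had 6 of 15 genes higher and 2 lower than in Trem2 macrophages (median 0.39), and the same numbers against Cd163 macrophages (median 0.88). Itgal, the integrin chain that binds vessel-wall ICAM-1, was at 178 CPM in members, 35.7 CPM in Trem2 macrophages, 11.2 CPM in Cd163 macrophages and 389 CPM in T cells. Ace, the angiotensin-converting enzyme, stood at 21.5 CPM in members against 1.54 and 3.12 CPM, and Adgre4, an adhesion receptor, at 43.8 CPM against 3.84 and 1.25 CPM. Treml4, a receptor of patrolling monocytes, was at 15.5 CPM, with a log2 ratio of 1.95 (1.00 to 2.87) to Trem2 macrophages. A pair of transcription factors of that list was not higher. Nr4a1, which the nonclassical subset needs for survival, was at 88.5 CPM against 108 and 203 CPM and 2-fold lower only against the latter. Klf2, a factor of quiescence and trafficking, was at 40.4 CPM against 102 and 81.7 CPM, where leaving out 1 Cd163 macrophage brought the latter log2 ratio from -1.02 to -0.88, short of 2-fold.

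In the migration and adhesion list, 5 of 22 genes were higher and 3 lower than in Trem2 macrophages (median 0.30), and 9 were higher and 2 lower than in Cd163 macrophages (median 0.75). Itga4, the integrin chain of VLA-4 that holds cells to VCAM-1, was at 87.6 CPM in members against 31.8 and 21.2 CPM, and Itgb7, a chain that can pair with it, at 80.8 CPM against 33.7 and 6.24 CPM. Cxcr4, the receptor for CXCL12, was at 625 CPM against 326 and 275 CPM, and Ccr1, a receptor for inflammatory chemokines, at 451 CPM against 248 and 195 CPM. Both passed 2-fold in the Cd163 comparison only. Itgax, which encodes CD11c, was lower than in Trem2 macrophages (36.1 against 213 CPM) and higher than the 16.8 CPM of Cd163 macrophages, by a log2 ratio of 1.10 that was 0.81 without 1 member and 1.75 without the Cd163 macrophage that held 37% of the UMIs of that group.

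The macrophage maturation list had no gene higher and 17 of 23 lower than in Trem2 macrophages, with a median of -1.70, and 1 higher and 15 lower than in Cd163 macrophages, with a median of -1.82. The groups were set apart by the macrophage receptors Trem2 and Cd163, so lower macrophage genes in members may follow from the rule. This list is therefore a description. C1qa, a chain of the complement starter C1q, was at 528 CPM (487 to 572) in members against 2251 and 3219 CPM. Apoe, the lipid carrier apolipoprotein E, was at 2077 CPM against 6754 and 6583 CPM. Mertk, the receptor for apoptotic cells, had 5 UMIs in the members (4.3 CPM) against 73.2 and 76.7 CPM, and Folr2, a folate receptor of resident macrophages, was at 28.4 CPM against 188 and 568 CPM, or 13.1 CPM without 1 member. Mrc1, the mannose receptor, was at 845 CPM against 1738 and 4551 CPM. Its log2 ratio to Trem2 macrophages was -1.04, and -0.98 without 1 of those cells. Cd63, a protein of late endosomes, was lower in both comparisons at 314 CPM against 1494 and 1113 CPM, while Gpnmb, a glycoprotein of lipid-laden macrophages, was 2-fold lower only than in Trem2 macrophages (86.8 against 855 CPM). Against the 49.3 CPM of Cd163 macrophages it passed 2-fold higher without 1 of those cells, at a log2 ratio of 1.10 in place of 0.82.

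All 7 tested genes of the MHC class II list were higher in members than in either macrophage group, with medians of 1.35 and 2.20. These genes present peptides to CD4 T cells. H2-Aa, an alpha chain, was at 3606 CPM (3497 to 3717) in members, 1219 CPM in Trem2 macrophages, 785 CPM in Cd163 macrophages and 229 CPM in T cells. Its partner H2-Ab1 was at 3480 CPM against 1197 and 616 CPM, and Cd74, the invariant chain, at 7710 CPM against 3017 and 1846 CPM. H2-DMa, which loads peptides, was at 351 CPM against 137 and 105 CPM. The 78 cells with 0 Plac8 UMIs that met every other term of the rule held H2-Aa at 5942 CPM, above the members. Dendritic cell markers summed to 112 CPM in members, 17.7 CPM in Trem2 and 140 CPM in Cd163 macrophages. By gene, all 4 tested were 2-fold higher than in Trem2 macrophages, and 3 were higher and 1 lower than in Cd163 macrophages. Without the members that held a dendritic cell marker UMI the MHC class II list medians were 1.15 and 1.87. The members differed widely among themselves, since the summed share of these genes ran from 0 to 6.09% of UMIs around a median of 0.716%, against medians of 0.203% and 0.0638% in Trem2 and Cd163 macrophages.

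Of the 9 costimulation and checkpoint genes tested, 3 were higher and 2 lower than in Trem2 macrophages (median 0.50) and 4 were higher and 3 lower than in Cd163 macrophages (median -0.54). Cd86, a ligand that costimulates T cells through CD28, was at 293 CPM in members against 76.4 and 86.1 CPM, and Cd80, its relative, at 49 CPM against 21.1 and 16.8 CPM. Havcr2, which encodes the inhibitory receptor TIM-3, was at 129 CPM against 48 and 6.86 CPM. The inhibitory Vsir and Cd200r1 were lower than in both groups, at 47.3 CPM against 123 and 111 CPM and at 14.6 CPM against 56.6 and 45.5 CPM.

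Interferon-stimulated genes were higher in 17 of 32 and lower in none against Trem2 macrophages, with a median of 1.03, and higher in 7 and lower in 4 against Cd163 macrophages, with a median of 0.30. The listed genes were not equally spread over the members. Ifitm3 had a UMI in all 91, while Ifit1 had 26 UMIs in 3 members and Ifit2 17 UMIs in 2. Without the C1q-positive members, a split given further on, the medians of this interferon-stimulated list were 0.44 and -0.42. The Ifitm genes encode membrane proteins that block entry of viruses. Ifitm3 was at 1881 CPM (1804 to 1962) in members against 476 and 459 CPM, and Ifitm2 at 1503 CPM against 589 and 735 CPM. Isg15, a ubiquitin-like modifier, was at 240 CPM against 73.5 and 81.1 CPM, with 26.2% of its UMIs in 1 member. Ifi204, a sensor of DNA, was at 323 CPM against 112 and 164 CPM and passed 2-fold only against the former, or against both when 1 Cd163 macrophage was left out (log2 ratio 1.03). Rsad2, which encodes the antiviral enzyme viperin, was at 85.1 CPM against 41.8 CPM in Trem2 macrophages, but 74.7% of its UMIs were in 1 member. Without that member it was at 21.7 CPM, a log2 ratio of -0.95 and short of 2-fold lower. Against the 47.4 CPM of Cd163 macrophages it was short of 2-fold. There it was 2-fold lower without that member (-1.13) and 2-fold higher without 1 Cd163 macrophage (1.22). Cxcl9, a chemokine for T cells, rested on single cells in each group, with 52.6% of the member UMIs and 83.3% of those of the Cd163 group in 1 cell each. Its member level was 16.3 CPM, and 7.79 CPM without that member, which put it under 2-fold of the 5.84 CPM of Trem2 macrophages. In that group 65.8% of the UMIs also sat in 1 cell, and without it the level was 2.01 CPM and Cxcl9 was higher in members. Without the Cd163 macrophage, that group was at 11.3 CPM instead of 67.4 CPM and Cxcl9 was not 2-fold lower in members.

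Promoters of this list were searched because Ifitm1, Ifitm2, Ifitm3 and Isg15 were each higher in members than in both macrophage groups. The windows, from RefSeq (GRCm38.p6), run from 250 bases before to 50 after a gene start. The motif GAAA, any 2 bases and GAAA again, a core read by interferon-responsive factors, was looked for on both strands, as was GAGGAAGT, a core of PU.1 sites. The first was present in 18 of 36 windows (50%), those of 18 of the 31 interferon-list genes matched, and in 1131 of all 32851 windows (3.44%). The second was present in 5 of 6 windows (83.3%) of the 3 Ly6-family genes matched and in 1052 of all windows (3.2%). Those 6 are overlapping pairs of windows, so matches in them are counted more than once, and of the 3 genes Ly6c1 had 0 UMIs and Ly6g 1 UMI in the members. The second motif was in 4 of 18 windows of the classical monocyte list (22.2%) and 3 of 23 of the macrophage maturation list (13%). Lists can share genes, so a window may be counted in more than 1 list. The motifs overlapped in 0 windows, the classical monocyte list held the first in 0 of 18 and the macrophage maturation list in 1 of 23, and a match is a description and not a shown site. The windows of Ifitm1, which had the largest ratio of the 4 genes above, and of Plac8, Vcan, Gpr141 and Ms4a4c held neither motif. Shown, as windows with matches, are an abundant Ifitm gene, the gene Isg15, whose 3 matches overlap one another, and the Ly6c2 marker, with matches in capitals. Ifitm3 lies at chr7:141010695-141010994, Isg15 at chr4:156200769-156201068 and Ly6c2 at chr15:75111922-75112221, all on the minus strand and printed 5′ to 3′.
Ifitm3: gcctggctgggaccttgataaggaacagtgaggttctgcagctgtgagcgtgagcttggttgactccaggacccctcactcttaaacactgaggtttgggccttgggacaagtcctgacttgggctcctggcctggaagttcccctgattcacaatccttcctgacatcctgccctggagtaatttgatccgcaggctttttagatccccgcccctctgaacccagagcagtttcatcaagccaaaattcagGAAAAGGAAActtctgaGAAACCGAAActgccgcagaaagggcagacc
Isg15: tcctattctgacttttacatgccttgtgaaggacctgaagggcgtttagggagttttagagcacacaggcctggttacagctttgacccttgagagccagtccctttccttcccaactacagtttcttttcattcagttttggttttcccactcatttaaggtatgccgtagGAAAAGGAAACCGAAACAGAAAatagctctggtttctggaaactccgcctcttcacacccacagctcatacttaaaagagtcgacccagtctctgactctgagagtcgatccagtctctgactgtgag
Ly6c2: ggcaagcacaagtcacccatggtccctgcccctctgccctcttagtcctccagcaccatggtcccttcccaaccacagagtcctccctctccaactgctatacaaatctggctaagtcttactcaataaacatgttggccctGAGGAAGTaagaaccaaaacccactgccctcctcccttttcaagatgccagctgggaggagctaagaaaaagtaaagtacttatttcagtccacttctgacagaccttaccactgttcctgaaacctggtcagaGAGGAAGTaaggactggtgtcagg

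In the inflammatory cytokine list 1 of 24 genes was higher and 9 lower than in Trem2 macrophages (median -0.33), where 8.77% of all genes were higher and 12% lower. Against Cd163 macrophages 7 of 23 were higher and 10 lower (median -0.61), beside 8.69% and 20% of all genes. Il1b, which encodes interleukin-1 beta, was at 1134 CPM in members, 617 CPM in Trem2 macrophages, 209 CPM in Cd163 macrophages and thus 2-fold higher only against the latter. Ptgs2, the inducible enzyme of prostaglandin synthesis, had the same pattern at 632 CPM against 384 and 145 CPM. Tnf was 2-fold lower than in both groups (102 CPM against 229 and 233 CPM). Ccl2 and Ccl7, both ligands of CCR2, were at 277 and 322 CPM, lower than in Cd163 macrophages (1361 and 2295 CPM). Against 512 and 594 CPM in Trem2 macrophages they were short of 2-fold, and 1 member held 22% and 1 held 27.2% of their UMIs, without which both passed 2-fold lower (log2 ratios of -1.21 and -1.31). Ccl12, another CCR2 ligand, was at 42.1 CPM against 191 and 631 CPM, and at 23.4 CPM without 1 member. Cxcl1, a neutrophil attractant, was at 52.4 CPM against 408 and 235 CPM. Il6 was at 12 CPM against 42.9 CPM in Trem2 macrophages, but 82.8% of the latter sat in 1 cell and the rest came to 7.41 CPM, which took the gene out of the 2-fold calls.

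The protease list had 0 of 22 genes higher and 10 lower than in Trem2 macrophages (median -0.83) and 3 higher and 10 lower than in Cd163 macrophages (median -0.88). The lysosomal cathepsins named next were abundant, while Ctsk, given above, was not. Ctss was at 2211 CPM in members against 5455 and 2831 CPM, and 2-fold lower only against the former, and Ctsb was at 1985 CPM against 6059 and 6002 CPM. Ctsl was at 1333 CPM against 8502 and 5240 CPM, and Ctsd at 570 CPM against 3453 and 1963 CPM. Timp2, an inhibitor of matrix metalloproteinases, was at 91.1 CPM against 843 and 1179 CPM. Mmp8, the collagenase of neutrophils, was near the Trem2 level (52.4 against 42 CPM) and higher than the 2.5 CPM of Cd163 macrophages, and Plaur, the urokinase receptor, was at 607 CPM against 467 and 253 CPM.

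Lipid handling genes were higher in 2 and lower in 10 of 18 against Trem2 macrophages (median -1.04) and higher in 2 and lower in 6 against Cd163 macrophages (median -0.50). Fabp5, a fatty acid carrier, was at 897 CPM in members against 3465 and 2108 CPM. Lpl, a lipase, was at 59.3 CPM with 89.9% of its UMIs in 1 member, and the rest came to 6.1 CPM against 652 CPM in Trem2 macrophages. Without that member it was also 2-fold lower than the 98.6 CPM of Cd163 macrophages, of which 84.2% sat in 1 cell; without that cell instead, it was 2-fold higher in members.

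Growth and angiogenic factors were higher in 1 and lower in 9 of 16 against Trem2 macrophages (median -1.35) and higher in 2 and lower in 9 against Cd163 macrophages (median -1.27). Fn1, which encodes the matrix protein fibronectin, was at 688 CPM in members against 2685 and 2962 CPM. Igf1, insulin-like growth factor 1, was at 32.6 CPM against 226 and 333 CPM, and Hbegf, a ligand of the epidermal growth factor receptor, at 165 CPM against 504 and 1090 CPM. Vegfa, the vessel growth factor, was lower than in Trem2 macrophages (177 against 381 CPM) and close to the 162 CPM of Cd163 macrophages.

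Receptors for microbial patterns and antibody were higher in 6 and lower in 0 of 23 against Trem2 macrophages (median 0.39) and higher in 8 and lower in 1 against Cd163 macrophages (median 0.75). Tlr2, which reads bacterial lipoproteins, was at 442 CPM in members against 208 and 198 CPM, with a log2 ratio to Trem2 macrophages of 1.08 that was 0.98 without 1 member. Tlr4, the endotoxin receptor, was at 95.4 CPM against 26.4 and 56.2 CPM, and its coreceptor Cd14 at 1411 CPM against 1053 and 579 CPM. Fcgr2b, the inhibitory antibody receptor, was the lower gene, at 553 CPM against 1518 CPM in Cd163 macrophages.

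Among 22 lineage transcription factors, 1 was higher and 4 lower than in Trem2 macrophages (median 0.33), near the 8.77% and 12% of all genes, and 1 was higher and 7 lower than in Cd163 macrophages (median -0.37). Runx3 was the higher gene against Trem2 macrophages, at 308 CPM against 92.9 CPM. Cebpb was abundant at 2397 CPM against 1233 and 1235 CPM, just short of 2-fold with a log2 ratio of 0.96 in each comparison. Cebpa and Klf4 were lower in both, at 52.4 CPM against 139 and 155 CPM and at 394 CPM against 854 and 1047 CPM. Maf, a factor of resident macrophages, was at 109 CPM against 200 and 799 CPM, and without 1 member at 83.7 CPM and 2-fold lower in both.

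Immediate early genes, which tissue digestion can also induce, were higher in 1 and lower in 3 of 16 against Trem2 macrophages (median -0.52, beside 0.04 for all genes) and higher in 0 and lower in 8 against Cd163 macrophages (median -1.09). Zfp36, a factor that destabilises cytokine transcripts, was the higher gene, at 1063 CPM against 497 CPM. Egr1 was at 254 CPM against 419 and 1323 CPM, and at 144 CPM without 1 member holding 44.3% of its UMIs, which made it 2-fold lower than in Trem2 macrophages as well. Hspa1a, a heat shock protein, was at 230 CPM against 589 and 1427 CPM, or 139 CPM without 1 member. The part of digestion in these levels was not tested.

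Hypoxia and glycolysis genes were higher in 1 and lower in 11 of 19 against Trem2 macrophages (median -1.16) and higher in 2 and lower in 5 against Cd163 macrophages (median -0.35). Slc16a3, the lactate exporter, was the gene higher than in Trem2 macrophages and 1 of the 2 higher than in Cd163 macrophages. It was at 399 CPM in members against 127 and 58.6 CPM. The glycolytic enzymes Pgam1 and Ldha were at 161 and 269 CPM against 579 and 686 CPM in Trem2 macrophages. In the cell cycle list 1 of 10 genes was higher and 3 lower than in Trem2 macrophages (median -0.45), and 1 of 17 was higher and 12 lower than in Cd163 macrophages (median -1.60). Only 4 Mki67 UMIs were found in the members. Hmgb2, a chromatin protein found also outside division, was at 292 CPM against 133 and 168 CPM.

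Vitamin D genes bear on the treated culture of the series. The list had 2 of 5 genes higher and 0 lower than in Trem2 macrophages (median 0.31), and 1 higher and 1 lower than in Cd163 macrophages (median -0.01). Vdr, the vitamin D receptor, was at 72.2 CPM (57.6 to 89.3) in members against 21.1 and 37.4 CPM, with log2 ratios of 1.78 (1.37 to 2.18) and 0.95 (0.45 to 1.45). The latter was 1.04 without 1 Cd163 macrophage. Rxrb, a partner receptor, was at 39.5 CPM against 17.2 and 18.1 CPM. Cyp27b1, which makes the active hormone, and Cyp24a1, which breaks it down, were at 0 UMIs in members and in both macrophage groups.

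The families of the Ly6c2 and Ms4a4c markers varied by gene. In the Ly6 list 3 of 4 genes were higher and 0 lower than in Trem2 macrophages (median 1.63), and 2 of 5 were higher and 1 lower than in Cd163 macrophages (median 0.16). Ly6e, a membrane-anchored protein, was at 1126 CPM against 490 and 1007 CPM, and Ly6i, whose protein also sits on monocytes, at 50.7 CPM against 11.4 and 1.25 CPM. In the Ms4a list 3 of 9 genes were higher and 1 lower than in Trem2 macrophages (median 0.60), and 2 were higher and 4 lower than in Cd163 macrophages (median -0.34). Ms4a7, a gene of tissue macrophages, was lower than in both, at 184 CPM against 754 and 822 CPM.

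**Figure D2:**
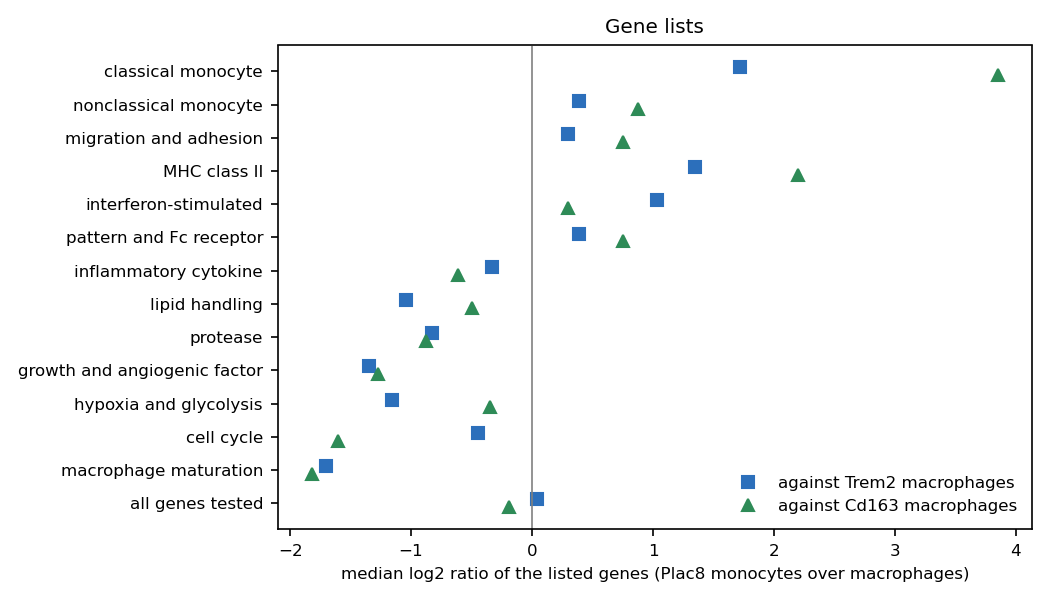
Median log2 ratio of Plac8 monocytes over Trem2 macrophages (squares) and over Cd163 macrophages (triangles) for 13 gene lists and for all genes tested, with 1 CPM added to each level. The classical monocyte and MHC class II lists lie to the right of all genes tested in both comparisons, and the macrophage maturation list lies to the left in both.

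The members were not uniform, and they were first divided by Ly6c2. The 25 members with a Ly6c2 UMI at 2000 UMIs (median depth 11534 UMIs) were set beside the 66 without (13077 UMIs). Negative members do not all lack Ly6c2, since 49 members held a Ly6c2 UMI before thinning. Ly6c2 was at 781 CPM in the positive and 61.8 CPM in the negative members. Of 7146 genes tested, 466 (6.52%) were 2-fold higher and 814 (11.4%) 2-fold lower in the positive members, with a median of -0.01. Under the 16 other settings tried, 413 to 1152 genes were higher and 740 to 1277 lower. Ifitm6 was at 252 CPM in positive and 99.1 CPM in negative members (log2 ratio 1.35, 0.88 to 1.81). Vcan hardly differed, at 382 against 362 CPM, so the 2 markers did not go together, and over the 91 members their levels had a Pearson r of -0.03 and a Spearman rho of -0.01. Such correlations are over cells that share a library and differ in depth. The classical list had 4 of 18 genes higher and 0 lower in positive members (median 0.31), and the macrophage maturation list 0 higher and 6 of 22 lower (median -0.65). The nonclassical list had 0 of 15 higher and 5 lower (median -0.63), and the interferon-stimulated list 3 of 32 higher and 11 lower (median -0.50). C1qa was at 160 CPM in positive members, or 96.5 CPM without 1 of them, against 660 CPM in negative members. Dendritic cell markers summed to 22.9 CPM in positive and 143 CPM in negative members, and without the members that held one of their UMIs 679 genes were higher and 926 lower. The fibroblast list summed to 91.5 CPM in positive and 952 CPM in negative members, which include the fibroblast-rich member, and without it 462 genes were higher and 783 lower.

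Division by the summed MHC class II share set the 31 members above 2.36% against the 31 below 0.117%. Of 7416 genes tested, 883 (11.9%) were 2-fold higher and 1150 (15.5%) 2-fold lower in the high members, with a median of -0.06. Both monocyte lists ran against MHC class II, the classical with 0 of 19 genes higher and 13 lower (median -1.90) and the nonclassical with 1 of 15 higher and 11 lower (median -1.66). Ly6c2 was at 139 CPM in the high against 474 CPM in the low members, Vcan at 132 against 703 CPM and Hp at 47 against 378 CPM. Gpr141 was at 79.9 against 349 CPM, whereas Ms4a4c (233 against 259 CPM) and Ccr2 (249 against 291 CPM) were nearly level. Aif1, an actin-binding protein of macrophages chosen after its values were seen, was at 602 against 92.6 CPM, and Vdr at 122 against 24.5 CPM. Over all 91 members the MHC class II share went with Vcan at a Pearson r of -0.28 and a Spearman rho of -0.36, with C1q at 0.33 and 0.28 and with UMIs per cell at 0.22 and 0.16. The high members held dendritic cell markers at 235 CPM against 51.7 CPM, and the fibroblast-rich member lay among the low ones, where the fibroblast list summed to 2129 CPM. Without members with a dendritic cell marker UMI 1228 genes were higher and 1088 lower, and without the fibroblast-rich member 883 and 998. Members with a Ly6c2 UMI after thinning were spread over the range, with 11 among the 31 low members, 9 among the 31 high members and 5 between them.

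A split by C1q, chosen after the data were seen, set 35 members with a C1qa, C1qb or C1qc UMI at 2000 UMIs (median depth 13446 UMIs) against 56 without (11561 UMIs). Of 7463 genes tested, 999 (13.4%) were 2-fold higher and 522 (6.99%) 2-fold lower in C1q-positive members, with a median of 0.06. Of the markers outside the rule, Vcan was at 144 CPM in positive against 523 CPM in negative members, Gpr141 at 81.6 against 297 CPM and Ly6c2 at 138 against 329 CPM, while Ms4a4c, at 201 against 273 CPM, was short of 2-fold. Itgal was at 75.3 against 249 CPM. They had more of the maturation list, in which 13 of 21 genes were higher and 1 lower (median 1.37), and Mrc1 was at 1688 against 258 CPM. The inflammatory cytokine list had 6 of 24 genes higher and 2 lower (median 0.36). Ccl7 was at 745 CPM in positive and 27.7 CPM in negative members, and Ccl2 at 596 against 53.9 CPM. Ccl24, an eosinophil chemokine, was at 1073 against 39.4 CPM, the latter being 13.6 CPM without 1 cell. Over all members Ccl24 was at 464 CPM, 2-fold higher than the 76.7 CPM of Trem2 macrophages and short of 2-fold from the 664 CPM of Cd163 macrophages. Ccl8, a further monocyte attractant chosen after its values were seen, was at 4715 against 58.3 CPM, and the former was 3015 CPM without the member that held 37.7% of all its UMIs.

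Without the C1q-positive members the macrophage maturation medians were -2.75 against Trem2 and -2.71 against Cd163 macrophages, and the interferon medians were the 0.44 and -0.42 given above. The fibroblast-rich member was C1q-positive, and the fibroblast list summed to 1686 CPM in positive and 56.9 CPM in negative members. Dendritic cell markers summed to 163 CPM in positive and 75.8 CPM in negative members, with 4 of 5 genes higher, and neutrophil markers to 178 and 410 CPM. Of the counts of genes in C1q-positive members, 999 higher and 522 lower became 863 and 562 without the fibroblast-rich member, 996 and 984 without members with 2 or more fibroblast-marker UMIs, 974 and 620 without members with a dendritic cell marker UMI, and 1368 and 828 without members with an Il1r2 UMI. With Trem2 and Cd163 at 0 UMIs they became 1123 and 937.

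**Figure D3:**
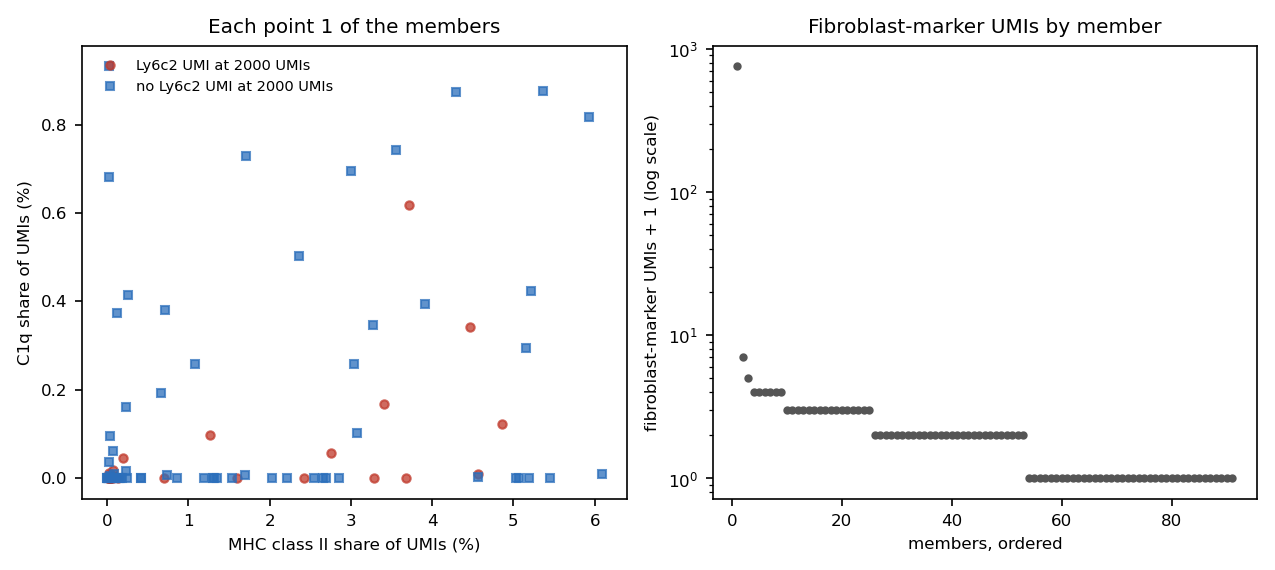
Left, share of UMIs from MHC class II genes (x axis, percent) and from C1q genes (y axis, percent) with 1 point per member, coloured by a Ly6c2 UMI after thinning to 2000 UMIs; right, fibroblast-marker UMIs plus 1 (log axis) of the 91 members in order. The MHC class II share runs from 0 to 6.09%, and 1 member holds 757 fibroblast-marker UMIs.

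Markers of other cell types were summed in the members. Of 9 neutrophil markers none was at 0, and they came to 314 CPM (283 to 348) in members against 98.8 CPM in Trem2 macrophages, 84.2 CPM in Cd163 macrophages and 23464 CPM in neutrophils, with Il1r2 giving 162 of 366 UMIs. The 8 dendritic cell markers came to 112 CPM in members, 17.7 CPM in Trem2 and 140 CPM in Cd163 macrophages. Of the 4 tested by gene, 4 were higher than in Trem2 macrophages (median log2 ratio 3.02). Against Cd163 macrophages 3 were higher and 1 lower (median 3.48). Cd209a was the most abundant of the 8 with 42 of their 130 UMIs in members, and 3 members held 60.8% of the 130. Of 9 T or NK cell markers, Nkg7, Gzma, Klrb1c and Ncr1 were at 0 in the members, and 181 of 189 UMIs were from Il7r, for a sum of 162 CPM against 2617 CPM in T cells. The 6 B or plasma cell markers came to 57.6 CPM, with 55 of 67 UMIs from Ighm. Plasmacytoid markers came to 343 CPM, of which Bst2 gave 202 of 399 UMIs and Ly6d none. All 5 basophil or mast cell markers were at 0 (upper bound 3.17 CPM). The 4 endothelial markers came to 14.6 CPM with Tie1 at 0 and Kdr giving 13 of 17 UMIs. The 6 fibroblast markers came to 726 CPM with Col3a1 the most abundant, and to 76.7 CPM (61.5 to 94.5) without the fibroblast-rich member, against 67.2 CPM in Trem2 and 107 CPM in Cd163 macrophages. The 8 macrophage markers came to 6034 CPM in members against 14755 and 17781 CPM, with Apoe giving 2418 of 7023 UMIs. The 64 members without a dendritic cell marker UMI had 708 genes higher and 1020 lower than Trem2 macrophages, and the 54 members without Il1r2 had 727 and 1013. The part of the markers of lymphoid, plasmacytoid and endothelial cells was not tested.

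The same rule found few cells in the cultures. It gave 21 of 7257 Co-Mac cells (0.289%, 0.179 to 0.442%) and 8 of 8825 VD-Mac cells (0.0907%, 0.0391 to 0.179%), against 4.24% in hSTSG. Most limits of the rule are UMI counts, and the libraries differed in depth. Kept cells had medians of 15804 UMIs in Co-Mac and 12089 in VD-Mac, against 6638 in hSTSG. The shares were not compared at equal depth. The cells that met the rule differed in their markers. Ly6c2 was at 1169 CPM in the Co-Mac cells, 262 CPM in the VD-Mac cells and 251 CPM in hSTSG members. Vcan was at 11.6 CPM (4.65 to 23.9) in Co-Mac and 4.95 CPM (0.125 to 27.6) in VD-Mac cells, both under the 368 CPM of the members, and Ms4a4c was at 9.92 CPM and 0. Ccr2 was at 250 CPM in the Co-Mac cells, close to the members, and at 0 UMIs in the VD-Mac cells, where the upper bound was 18.3 CPM. H2-Aa was at 236 CPM and 24.7 CPM against 3606 CPM in the members, and C1qa was at 0 in both cultures. Source, culture and treatment differ together between these libraries and cannot be told apart from each other in the comparison with hSTSG.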

How the data were processed

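The deposited counts of the authors (Cell Ranger 3.1.0; Seurat 3.1.1 is named in the submitters' notes) were read as UMIs per gene and cell with Python 3.11.15, numpy 2.4.6, scipy 1.17.1 and pandas 2.3.3, and plotted with matplotlib 3.10.9. UMIs of the cells of a group were summed and scaled to 1000000 (CPM). A call needed a ratio of 2-fold and a level of 10 CPM in whichever group was higher. List medians used log2 ratios with 1 CPM added. Thinning drew 2000 UMIs per cell without replacement (seed 20211201). Doublets were scored with Scrublet in scanpy 1.11.5 and kept. The genes named were the 5 markers, the 12 called genes per comparison and direction with the largest ratio at 50 CPM or more outside the rule, and genes of 29 lists (398 genes, 2 of them not among the features), of which those with a high level or a large ratio were named; others are said to be chosen after their values were seen. The members and lists were chosen with earlier results of these data known. Alternatives covered the rule, the depth, the call limits, doublets and groups of members. The submitters' notes name mm9 and the study's methods GRCh38, while 31011 of 31053 gene IDs were found in GENCODE M21, so coordinates are GRCm38. Values were compared between groups of cells of 1 library, with no test.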

Additional observations from a re-analysis of the deposited data

Results flagged for a closer look

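The hSTSG library also counted 20 antibody hashtags, which no comparison used. In the Plac8 monocytes 7 of them gave at least 4 UMIs, and HumanHashTag7 and HumanHashTag9 gave 1 each. HumanHashTag2 gave 3901 UMIs over the 91 members, HumanHashTag3 gave 1575, HumanHashTag4 gave 10646 and HumanHashTag5 gave 8579. HumanHashTag10 gave 19 UMIs, and HumanHashTag6 and MouseHashTag4 gave 4 each. All 91 members held at least 1 UMI of each of the first 4. The labels give no map from hashtags to the 5 mice, so no cell was assigned to an animal.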

How the results depend on the processing

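The counts of members and of genes, the Ly6c2 share, the ratios of named genes and the medians of 20 lists were recomputed under other settings, of which 5 were added after the data were seen: leaving out the fibroblast-rich member, members with 2 or more fibroblast-marker UMIs, with dendritic cell markers, with C1q or with Il1r2. The number of members was 52 with Trem2 and Cd163 at 0 UMIs, 56 without C1q and 54 without Il1r2, since these settings take cells away, and ran from 52 to 124. Genes higher and lower than in Trem2 macrophages were 1303 and 1506 with thinned cells, 306 and 291 at 50 CPM and 241 and 424 at 3-fold. For Cd163 macrophages they were 1524 higher with thinned cells, 342 and 476 at 50 CPM and 328 and 794 at 3-fold. At 1000 UMIs a Ly6c2 UMI was in 17.6% of members (10.4 to 27%). In the Ly6c2 split, genes higher were 874 with Trem2 and Cd163 at 0, 995 without C1q and 1152 without Il1r2, and genes lower 1277 with Trem2 and Cd163 at 0. In the MHC class II split, genes lower were 1769 with Trem2 and Cd163 at 0. Of 5221 recomputed gene ratios, 4217 lay within the counting interval, 965 outside it, and in 39 a called gene took the other sign. The log2 ratios of those 39 are given with 1 CPM added to each level. Against Trem2 macrophages these were, with Trem2 and Cd163 at 0, Ccl24 -0.48, Cxcl12 -1.25 and Dcn -1.02. Without C1q they were Ccl24 -0.95, Col1a2 -0.59, Col3a1 -0.19, Dcn -0.64 and Rsad2 -1.21. Without members with 2 or more fibroblast-marker UMIs they were Col1a1 -0.61, Col1a2 -0.80, Col3a1 -0.76, Cxcl12 -0.09 and Dcn -1.90. With Lyz2 at 20 they were Cxcl12 -0.20, Dcn -0.39 and Rsad2 -1.51. Without doublets they were Cxcl12 -0.35 and Dcn -0.65, and without the fibroblast-rich member -0.35 and -0.64. Without dendritic cell markers they were Cxcl12 -1.25 and Dcn -0.16. Without Il1r2 they were Cxcl12 -1.25, Cxcl9 -0.32, Dcn -0.61, Rsad2 -1.07 and Il1r2 -3.95, the last by construction. With the rule on thinned cells they were Ccl3 1.38, Gas6 0.20, Il6 4.62 and Rsad2 -0.94. Against Cd163 macrophages they were Aqp1 0.57 under 5% mitochondrial UMIs and 0.18 without doublets, Il1r2 -2.42 without Il1r2, and, with the rule on thinned cells, Aqp1 6.54, Ccl3 1.48, Fabp4 3.59, Il6 2.22 and Klf2 0.09. The fibroblast-rich member held 89.6% of the fibroblast-marker UMIs, and apart from Il1r2 the cause was not tested. Of 920 recomputed list medians, 895 lay within 0.5 of the reported median and 25 further off, and 0 of the medians at or past 1 changed sign. Gene and list values within the splits, the other thinned shares, the motif counts and the cells of the cultures were not recomputed. One pool of 5 mice gives no spread between animals, so no difference was tested, and a gene at 0 UMIs in a group gives only a bound at this depth.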

Other observations

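A hashtag led a cell when it held at least 10 UMIs and at least 4 times those of the next. No hashtag led in 62 of the 91 members, HumanHashTag4 led in 16, HumanHashTag5 in 12 and HumanHashTag2 in 1. Among the 2144 kept cells no hashtag led in 1401, HumanHashTag4 led in 368 and HumanHashTag5 in 314. Trem2 macrophages differed from the members, since no hashtag led in 67 of 311 (21.5%, against 68.1% of members) and HumanHashTag4 led in 178 (57.2%, against 17.6%). The rule, with lower UMI limits, was also applied to cells thinned to 2000 UMIs. It gave 91 cells, of which only 54 were members. The 37 other cells held Ly6c1 at 47 CPM and endothelial markers at 212 CPM. The 37 members left out held Ly6c2 at 114 CPM, against 358 CPM in the 54. Against Trem2 macrophages 647 genes were then higher and 606 lower, in place of 655 and 897. Against Cd163 macrophages 632 were higher and 1121 lower, in place of 678 and 1564.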
